A study of Mus musculus with 137 samples.

Results

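The villi of the mouse duodenum were compared after 90 days (called day 91) of drinking water with 180 or 5 ppm hexavalent chromium, Cr(VI). Members were chosen by the sample labels, which gave 5 villus libraries at 180 ppm (mice 483, 484, 485, 488 and 490) and 5 at 5 ppm (mice 241, 243, 244, 245 and 246), 10 of the 66 villus libraries of the study, which also holds 71 crypt libraries. Female B6C3F1 mice, wildtype in both groups, drank water with 0, 0.1, 1.4, 5, 20, 60 or 180 ppm during 7 or 90 days, and crypts and villi were counted separately, in 28 groups. Both groups compared here therefore received chromium, added as sodium dichromate dihydrate, and neither is untreated. Each library came from 1 mouse, from a single section of formalin-fixed, paraffin-embedded duodenum from which the crypt layer had been cut away, so a library holds the whole villus, with its epithelium, lymphocytes and connective tissue core. No age was given in the labels used here. RNA was measured by TempO-Seq, in which pairs of short probes are joined on their target RNA and the joined probes are counted by sequencing.

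The villus is the absorptive finger of the small intestine. Its enterocytes arise from stem cells in the crypt, switch on digestive enzymes and nutrient transporters as they move up, and are shed at the tip. The brush border on their outer face carries the last enzymes of sugar and peptide digestion, and lymphocytes sit between the cells. Cr(VI) taken up by cells is reduced to Cr(III), and in mice prolonged intake in drinking water is known to injure villi and to cause tumours of the small intestine.

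Levels are given as CPM, the counts of a probe per 1000000 counts of its library, after TMM scaling between libraries. Lists of library values follow the order of the mice above. The enterocyte genes Vil1 and Fabp2 reached 4592 to 9727 and 16415 to 68621 CPM over the 10 villus libraries. Lyz1, the lysozyme of Paneth cells at the crypt base, was at 60.1 to 734 CPM, against 1467 CPM or more in the crypts of the same mice. Crypt products were therefore present in these villi at a lower level, but not absent. Summed over 13 genes of the exocrine pancreas, which lies beside the duodenum, the level ran from 89.3 to 78282 CPM at 180 ppm and from 14.1 to 27182 CPM at 5 ppm, a range that the 2 groups shared.

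Library totals were 3030885 to 4574064 counts at 180 ppm and 1991023 to 4406006 at 5 ppm (exact two-sided permutation test over the 10 libraries, p = 0.159, where 0.00794 is the smallest p that 252 arrangements allow). With every library thinned to 1463938 counts, 15023 to 18110 probes were detected at 180 ppm and 16690 to 21380 at 5 ppm (exact permutation p = 0.111). The libraries of mice 245 and 246, both at 5 ppm, stood apart. They had 21471 and 21527 probes detected, and olfactory and vomeronasal receptor genes, which act in the nose, summed to 6208 and 4757 CPM in them against 166 to 1486 CPM in the other 8. For the genes whose levels are given below, a call that was lost without both libraries is given with the value without them, and their part in the probes of low level was not tested beyond that.

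**Figure D1:**
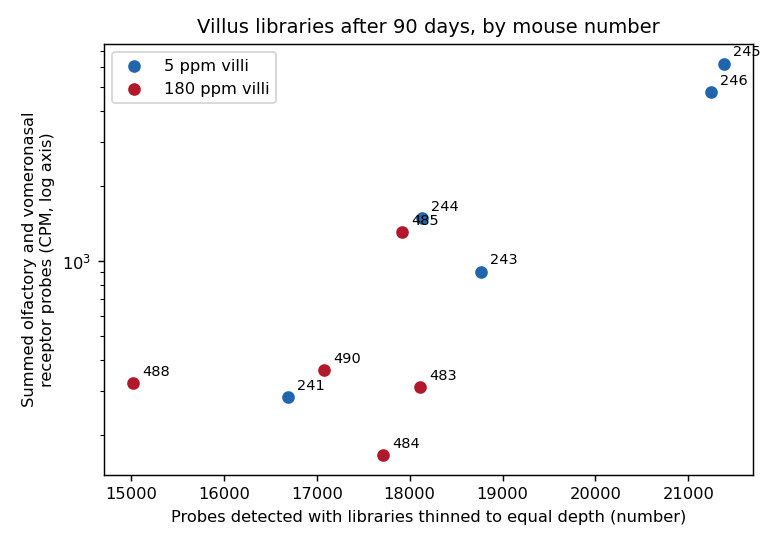
Each point is 1 villus library at 90 days, labelled by mouse, with the probes detected at equal depth on the horizontal axis and the summed CPM of olfactory and vomeronasal receptor genes on the vertical log axis. Mice 245 and 246 lie at the upper right, with 21380 and 21245 probes, and the 5 libraries at 180 ppm lie to the left of them, at 1302 CPM or less.

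Across 26365 probes for 19020 genes, 2649 probes passed an adjusted p of 0.1 in edgeR's quasi-likelihood test. They belonged to 2434 genes, of which 982 had a probe that was higher at 180 ppm and 1453 one that was lower, with 1 gene counted in both. A gene with several probes was then read from the one with most counts, and in this form 4.45% of 18998 genes were higher and 6.49% were lower. The 5 libraries of one group all lay above those of the other in 5.05% of these genes. Among genes with a mean of at least 10 CPM, 795 of 7756 were higher and 524 were lower, with a median log2 fold change of 0.09 against -0.30 over all genes. The excess of lower over higher genes was thus not seen among genes of higher level.

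The count of genes moved with single libraries. It was 1241, 1116, 1402, 1358 and 1185 with mouse 483, 484, 485, 488 or 490 left out, and 2933, 2893, 1550, 1204 and 1074 with mouse 241, 243, 244, 245 or 246 left out. Without both 245 and 246 it was 687 genes, of which 317 were higher and 370 lower. Under that omission 299 of the 982 genes and 355 of the 1453 were called again, and 100% of the probes called higher and 87.3% of those called lower kept their sign. A core of 468 higher and 273 lower genes was called with any 1 of the 10 libraries left out.

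Genes were then read in lists by role. The fold of a list is given as the median log2 fold change of all its tested members, also those of low level. The background is 0.09 for genes of at least 10 CPM and -0.30 over all genes. The second is the nearer one for lists with many members of low level. A bulk sample cannot tell fewer cells of a type from less RNA per cell. The lists with the largest share of higher genes were the cytosolic ribosomal proteins, the enzymes of cholesterol synthesis and the subunits of oxidative phosphorylation. The lists with the largest share of lower genes were peptide digestion, villus enterocyte markers, sugar digestion, and, at equal shares, fat absorption, nuclear receptors, lymphocytes and the villus tip.

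**Figure D2:**
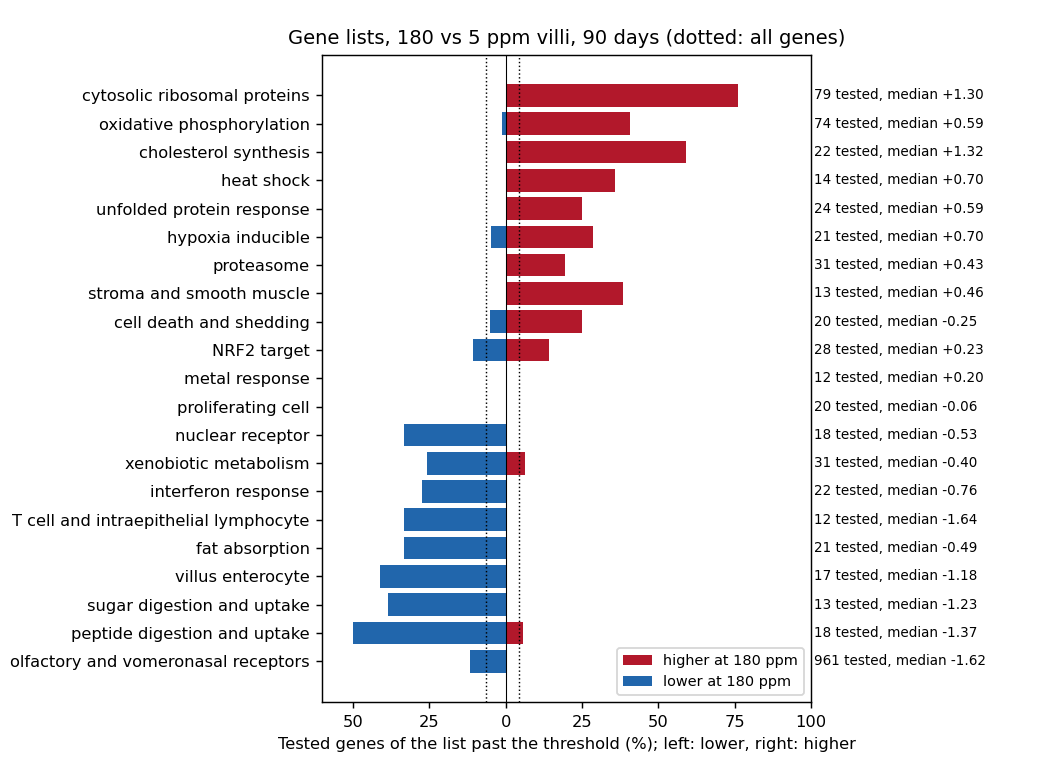
For each gene list, bars to the right give the percent of tested members that were higher at 180 ppm and bars to the left the percent that were lower (adjusted p under 0.1), with the same shares over all genes at the dotted lines and the number tested and the median log2 fold change beside each bar. Ribosomal proteins reach furthest to the right, with 60 of 79 members, and peptide digestion and uptake reaches furthest to the left, with 9 of 18.

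Promoter sequences are shown first for the genes that the results below turn on, from 3 lists in which 13 of 22, 6 of 22 and 7 of 21 members were called. They are RefSeq sequences of build GRCm38.p6, the 250 bases before the annotated start, written 5′ to 3′ on the strand of the gene. Matches to the motifs, searched on both strands, are in capitals, and neighbouring matches run together. For 3 genes of cholesterol synthesis the motif is CCAAT, which reads ATTGG on the other strand and is the site of the factor NF-Y, with in Hmgcs1 also TCACNCCAC, the sterol response element read by SREBP. Msmo1 lies at chr8:64733579-64733828, Idi1 at chr13:8885356-8885605 and Hmgcs1 at chr13:119690101-119690350.
Msmo1: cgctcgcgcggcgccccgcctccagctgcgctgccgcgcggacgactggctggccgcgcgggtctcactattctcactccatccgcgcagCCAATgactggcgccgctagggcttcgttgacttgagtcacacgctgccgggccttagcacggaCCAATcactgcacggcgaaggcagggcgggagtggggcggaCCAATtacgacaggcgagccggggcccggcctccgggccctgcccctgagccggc
Idi1: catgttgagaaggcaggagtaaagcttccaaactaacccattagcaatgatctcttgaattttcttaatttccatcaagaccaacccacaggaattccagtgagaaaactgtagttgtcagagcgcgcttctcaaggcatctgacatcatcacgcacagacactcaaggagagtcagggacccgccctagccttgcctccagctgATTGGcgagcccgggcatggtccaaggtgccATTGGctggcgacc
Hmgcs1: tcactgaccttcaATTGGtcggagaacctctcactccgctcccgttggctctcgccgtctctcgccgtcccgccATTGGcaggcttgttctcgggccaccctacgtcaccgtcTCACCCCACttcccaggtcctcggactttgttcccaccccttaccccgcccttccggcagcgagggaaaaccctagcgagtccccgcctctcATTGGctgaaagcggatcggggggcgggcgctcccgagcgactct
For 2 genes answering interferon the motifs are TTCNNNGAA, the site of STAT factors, and the interferon-stimulated response element, read here as GAAA, any 2 bases and GAAA again. Irf1 lies at chr11:53769764-53770013 and Igtp at chr11:58199306-58199555.
Irf1: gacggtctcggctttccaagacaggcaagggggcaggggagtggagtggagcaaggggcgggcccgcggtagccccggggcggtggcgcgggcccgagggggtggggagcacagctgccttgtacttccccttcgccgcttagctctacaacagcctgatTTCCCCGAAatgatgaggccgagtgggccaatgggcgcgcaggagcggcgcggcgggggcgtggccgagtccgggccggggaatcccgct
Igtp: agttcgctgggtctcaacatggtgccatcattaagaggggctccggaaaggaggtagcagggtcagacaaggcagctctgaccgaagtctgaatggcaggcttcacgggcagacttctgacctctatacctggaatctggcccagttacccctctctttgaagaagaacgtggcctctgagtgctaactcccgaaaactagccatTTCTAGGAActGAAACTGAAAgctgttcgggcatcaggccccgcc
For 2 genes of glycolysis the motif is ACGTG, which reads CACGT on the other strand and is the core of the site read by hypoxia-inducible factor and by other factors of its class. Aldoa lies at chr7:126799255-126799504 and Hk2 at chr6:82774455-82774704.
Aldoa: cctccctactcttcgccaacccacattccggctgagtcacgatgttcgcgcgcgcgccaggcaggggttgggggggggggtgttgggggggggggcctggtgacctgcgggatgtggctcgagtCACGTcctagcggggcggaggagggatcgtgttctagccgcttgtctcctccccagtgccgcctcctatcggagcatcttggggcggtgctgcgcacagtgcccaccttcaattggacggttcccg
Hk2: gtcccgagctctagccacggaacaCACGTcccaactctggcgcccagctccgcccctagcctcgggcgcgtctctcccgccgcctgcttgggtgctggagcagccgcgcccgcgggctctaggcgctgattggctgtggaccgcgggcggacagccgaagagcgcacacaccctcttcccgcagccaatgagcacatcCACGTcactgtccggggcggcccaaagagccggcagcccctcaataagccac

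CCAAT stood in 13 of the 14 cholesterol synthesis genes that matched the promoter table, against 37.5% of 27025 promoters of the same length. TCACNCCAC stood in 1 of the 14, against 1.22%. Of the 8 matched members that were called, 7 held CCAAT. Of 19 matched interferon response genes, 10 held the interferon-stimulated response element against 3.46% of all promoters and 6 held TTCNNNGAA against 8.13%, and of the 6 called members 2 held the first and 2 the second. ACGTG stood in 15 of 19 matched hypoxia inducible genes against 18.5%, and in 6 of the 6 matched members that were called, of which 5 rose and Pfkfb3 fell. These are matches of letters in this window, and binding was not measured.

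The machinery of translation was higher at 180 ppm. Of 79 cytosolic ribosomal protein genes tested, 60 rose and none fell, with a median log2 fold change of 1.30. Eef1a1, the elongation factor that brings aminoacyl-tRNA to the ribosome (GRCm38 chr9:78478449-78489151), had the smallest adjusted p of all probes. It stood at 1519, 1343, 1196, 1349 and 1570.4 CPM at 180 ppm and at 388, 782, 336, 346 and 234 CPM at 5 ppm. The groups did not overlap, although mouse 243 had more than its 5 ppm fellows (log2 fold change 1.74 ± 0.20, adjusted p = 2.01e-10, where ± is the standard error).

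Rpl7, a protein of the large ribosomal subunit, stood at 482, 458, 276, 247 and 336 CPM against 76.9, 169.9, 60.1, 65.1 and 80.8 CPM (log2 fold change 1.98 ± 0.25, adjusted p = 3.53e-09). All 5 libraries at 180 ppm were above mouse 243, the highest at 5 ppm. Rpl23, Rps3a1 and Rpl4 rose likewise, by log2 1.54, 1.85 and 1.51, with no overlap of the groups. Levels of single ribosomal proteins are uncertain, because the mouse genome holds many near-identical copies that a probe may also match. Ppia, the abundant prolyl isomerase cyclophilin A, rose from 311 ± 123 to 1043 ± 231 CPM (mean ± SD, n = 5 each) with log2 fold change 1.74 ± 0.22, adjusted p = 3.53e-09. Without mice 245 and 246, 55 of the ribosomal protein genes were called higher, and 53 to 64 with any 1 library left out.

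Subunits of oxidative phosphorylation, which make ATP in mitochondria, rose in 30 of 74 genes and fell in 1, Atp5s, with a median of 0.59. Atp5k, a small subunit of ATP synthase, stood at 354, 280.03, 263, 319.7 and 366 CPM against 165, 161, 87.6, 79.7 and 56.4 CPM (log2 fold change 1.52 ± 0.25, adjusted p = 3.56e-06). Every 180 ppm library was above every 5 ppm library. Uqcrh of complex III and Atp5a1 of ATP synthase rose by log2 0.98 ± 0.19 and 0.85 ± 0.18. The count for oxidative phosphorylation was 17 without mouse 245 or mouse 246, 18 without mouse 483 and 6 without both 245 and 246.

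Subunits of the proteasome, the protease that clears tagged proteins, rose in 6 of 31 genes with a median of 0.43. Psmc6, an ATPase of its cap, stood at 82.9, 34.2, 34.2, 35.6 and 38.3 CPM against 26.4, 29.7, 19.1, 10.7 and 8.42 CPM (log2 fold change 1.22 ± 0.34, adjusted p = 0.013). Mouse 483 was far above the other 180 ppm mice, and the adjusted p was 0.138 without it and 0.276 without both 245 and 246. The proteasome count was 3 without mouse 483, 2 without mouse 246, 1 without mouse 245 and 0 without both 245 and 246 (4 with an unadjusted p under 0.05).

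Cholesterol synthesis rose in 13 of 22 genes with none lower and a median of 1.32. Msmo1, the sterol oxidase whose promoter is shown above, stood at 248.7, 287, 301, 125 and 140.4 CPM against 64.3, 83.4, 66.1, 55.9 and 80.8 CPM (log2 fold change 1.64 ± 0.26, adjusted p = 1.67e-06). The groups did not overlap, and mice 488 and 490 were the lowest of the 180 ppm group. Idi1, which makes the isoprenoid building block, stood at 169.6, 251, 282, 38.9 and 111 CPM against 46.4, 74.1, 20.7, 9.24 and 42.9 CPM (log2 fold change 2.12 ± 0.36, adjusted p = 8.6e-06). Mouse 488 lay inside the 5 ppm range. Acat2, the enzyme that joins acetyl-CoA units at the start of the route, rose from 15.3 ± 1.89 to 51.4 ± 16.7 CPM (log2 fold change 1.72 ± 0.30, adjusted p = 8.99e-06).

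Hmgcs1, the next enzyme of the route, was chosen for its promoter after its values were seen, and stood at 68.8, 63.5, 193, 70.9 and 72.99 CPM against 36.6, 34.8, 43.8, 24.3 and 54.7 CPM (log2 fold change 1.26 ± 0.40, adjusted p = 0.047). Mouse 485 was far above the rest, and the adjusted p was 0.164 without it, 0.121 without mouse 245 and 0.188 without both 245 and 246. The count for cholesterol synthesis was 7 without mouse 484 or mouse 245 and 6 without both 245 and 246, where the median of the list was 1.23.

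Npc1l1, the brush border protein that takes up dietary cholesterol, fell in the same villi. It stood at 86.3, 66.3, 79.8, 63.3 and 79.8 CPM at 180 ppm and 328, 271, 408, 289 and 561 CPM at 5 ppm (log2 fold change -2.30 ± 0.29, adjusted p = 3.53e-09). The groups were far apart and did not overlap. Plin2, which coats fat droplets in the cell, went the other way, with 896, 849, 1027, 729 and 856 CPM against 292, 233, 245, 102 and 141 CPM (log2 fold change 2.10 ± 0.26, adjusted p = 1.97e-09). All 180 ppm libraries lay well above mouse 241, the highest at 5 ppm.

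Genes of the absorptive enterocyte were in part lower. Among villus enterocyte markers, 7 of 17 fell and none rose, with a median of -1.18, and 3 of the 7 were the secreted apolipoproteins Apoa1, Apoa4 and Apoc3. Their summed level was 34601 to 101821 CPM at 180 ppm and 75230 to 144732 CPM at 5 ppm, so the groups overlapped in the sum. Vil1 itself, the structural protein of the microvilli, stood at 5399, 4592, 6885, 5434 and 5372 CPM against 9727, 7179, 9484, 6315 and 9478 CPM (log2 fold change -0.61 ± 0.20, adjusted p = 0.0623), with mouse 485 above mouse 245 of the other group. The call was lost without any 1 of mice 483, 484, 488, 490, 241, 244 or 246 (adjusted p 0.126 to 0.179). It was lost also without both 245 and 246 (0.144) and with the compared libraries alone (0.151). Klf4, a factor of differentiated villus cells, showed no call (log2 fold change 0.08 ± 0.38, adjusted p = 0.962), with 82.9 ± 15.02 CPM at 180 ppm and 78.4 ± 27.2 CPM at 5 ppm. Fabp2, the cytoplasmic fatty acid carrier of enterocytes, had the highest level of the list and was not called either (log2 fold change -0.42 ± 0.31, adjusted p = 0.501).

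Fat absorption fell in 7 of 21 genes, with a median of -0.49. Apoa1, Apoc3 and Apoa4 are the apolipoproteins with which enterocytes export fat. Apoc3 stood at 111, 16.99, 40.8, 127 and 179 CPM against 697, 403, 948, 279 and 917 CPM (log2 fold change -2.77 ± 0.48, adjusted p = 1.46e-05). Mice 484 and 485 were lowest, and no 180 ppm library reached the lowest at 5 ppm. Apoa1 fell from 19017 ± 5635 to 5389 ± 4177 CPM (log2 fold change -1.82 ± 0.39, adjusted p = 0.000702) without overlap, and Apoa4 fell from 13270.0 ± 7587 to 3983 ± 2797 CPM (log2 fold change -1.74 ± 0.45, adjusted p = 0.00752) with overlap, since mouse 245 was at 5313 CPM and mice 488 and 490 were above it.

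The list of sugar digestion and uptake, which also holds enzymes that make glucose, fell in 5 of 13 genes. They were Mgam, Treh, the glucose carrier Slc5a1, and Pck1 and Fbp1 of glucose making. The median was -1.23, with all 13 members below zero. Mgam, the brush border maltase that finishes starch digestion (GRCm38 chr6:40628831-40769123), stood at 1709, 946, 749, 984 and 744 CPM at 180 ppm and 4731, 4752, 4936, 4907 and 3763 CPM at 5 ppm (log2 fold change -2.17 ± 0.27, adjusted p = 2.39e-09). The groups were far apart, with mouse 483 highest in one and mouse 246 lowest in the other. Treh, the enzyme that splits trehalose, stood at 178, 112, 75.3, 114 and 111 CPM against 689, 357, 644, 178 and 367 CPM (log2 fold change -1.91 ± 0.36, adjusted p = 7.02e-05), and only mouse 245 of the 5 ppm group came as low as the 180 ppm range. Pck1, the enzyme that commits carbon to making glucose, fell further, from 49.4, 78.3, 248.8, 150.2 and 476 CPM at 5 ppm to 6.23, 9.31, 7.60, 22.4 and 33.3 CPM at 180 ppm (log2 fold change -3.63 ± 0.60, adjusted p = 3.11e-06). The lowest 5 ppm library, mouse 241, was above the highest 180 ppm library, mouse 490.

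Peptide digestion and uptake fell in 9 of 18 genes and rose in 1, with a median of -1.37. Slc15a1, which carries di- and tripeptides into the cell, stood at 42.2, 21.4, 4.84, 21.1 and 47.6 CPM against 303, 117, 187, 102 and 94.3 CPM (log2 fold change -2.52 ± 0.43, adjusted p = 6.3e-06). Mouse 485 was lowest and the groups did not overlap. Mep1b, a subunit of the membrane protease meprin, fell from 1516 ± 469 to 465 ± 69.02 CPM, and Slc6a19, the carrier of neutral amino acids on the brush border, from 491 ± 103 to 139 ± 33.1 CPM (adjusted p = 4.71e-07 and 1.2e-05). Anpep, aminopeptidase N, stood at 554, 172, 232, 290.1 and 1046 CPM against 2031, 1544, 1837, 667 and 1863 CPM (log2 fold change -1.79 ± 0.50, adjusted p = 0.0173). Mouse 245 lay inside the 180 ppm range, and without mouse 484 the adjusted p was 0.101. The member that rose was Slc7a7, which passes cationic amino acids out on the blood side, at 85.8, 81.5, 46.3, 42.2 and 51.6 CPM against 28.02, 28.3, 15.1, 17.99 and 11.8 CPM (log2 fold change 1.57 ± 0.35, adjusted p = 0.000761). Here every 180 ppm library was above every 5 ppm library.

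Of 9 genes of the villus tip, Ada, Apoa4 and Slc28a2 fell and Junb rose. Without both 245 and 246, 2 were called lower and none higher, and none was called higher without mouse 490. Ada, adenosine deaminase, which clears adenosine at the tip, stood at 0, 0.931, 0, 12.9 and 4.23 CPM at 180 ppm and 110.2, 49.5, 37.4, 20.9 and 28.2 CPM at 5 ppm (log2 fold change -3.63 ± 0.89, adjusted p = 0.00214). Mice 483 and 485 had no count, and the highest 180 ppm library, mouse 488, was below every 5 ppm library.

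Nuclear receptors, the ligand-gated factors that set lipid and hormone programmes, fell in 6 of 18 genes. Ppard, which senses fatty acids, stood at 98.2, 113, 138, 110.4 and 109.6 CPM against 332, 278, 330.4, 330.1 and 476 CPM (log2 fold change -1.61 ± 0.21, adjusted p = 1.08e-08). The groups did not overlap, and the spread within them was small beside the gap. Thra, the thyroid hormone receptor alpha, stood at 72.6, 42.1, 80.5, 118 and 117 CPM against 196, 151, 185, 182 and 190.3 CPM (log2 fold change -1.07 ± 0.24, adjusted p = 0.000938), also without overlap. Hnf4g, a factor of enterocyte identity, was at the edge of the threshold (log2 fold change -0.94 ± 0.35, adjusted p = 0.095). It was lost without any 1 of mice 483, 484, 485, 488, 490, 244, 245 or 246 (adjusted p 0.13 to 0.297, and 0.487 without both 245 and 246). It was lost also with no filter (0.12), probes summed per gene (0.117) and probes detected as a covariate (0.292). The count for nuclear receptors was 2 without mouse 483, 484, 490, 244 or 246 and 3 without mouse 485 or 245, and without both 245 and 246 it was 4.

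Xenobiotic metabolism fell in 8 of 31 genes and rose in 2, Abcb1a and Mgst1. Cyp3a25, a cytochrome P450 of drug oxidation, stood at 109, 10.01, 19.01, 245 and 191 CPM against 611, 411, 1104, 450.2 and 1008 CPM (log2 fold change -2.64 ± 0.51, adjusted p = 9.59e-05). Mice 484 and 485 were lowest, and no 180 ppm library reached any at 5 ppm. Cyp2b10, another P450, fell from 646 ± 278 to 88.9 ± 90.97 CPM and Ephx1, an epoxide hydrolase counted with the NRF2 targets, from 125 ± 45.4 to 18.4 ± 12.7 CPM (adjusted p = 0.00183 and 3.47e-06). Abcb1a, the efflux pump P-glycoprotein, was higher, at 543, 393, 495, 498 and 519 CPM against 299.96, 183, 437, 161 and 200.4 CPM (log2 fold change 0.93 ± 0.29, adjusted p = 0.037). Mouse 244 lay inside the 180 ppm range, and the adjusted p was 0.121 without mouse 245, 0.109 without mouse 246 and 0.311 without both. Adh1, the alcohol dehydrogenase with the highest level of the list, was not called (log2 fold change -0.07 ± 0.39, adjusted p = 0.967). The count of lower xenobiotic metabolism genes was 2 without mouse 484, 4 without mouse 483, 244 or 246 and 5 without mouse 485, and of those higher it was 0 without mouse 245 or 246 and 1 without mouse 483, 484 or 490. Without both 245 and 246 these counts were 4 and 0.

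Other genes had large falls. Selenop, a selenium carrier, stood at 93.2, 124, 227, 434 and 347 CPM against 2269, 1369, 3352, 1886 and 4091 CPM (log2 fold change -3.40 ± 0.44, adjusted p = 1.08e-08), and mouse 243, the lowest at 5 ppm, was far above mouse 488, the highest at 180 ppm. Sectm1b stood at 37.4, 5.35, 15.9, 320.4 and 131 CPM against 1749, 1435, 2513, 2263 and 3019 CPM (log2 fold change -4.42 ± 0.77, adjusted p = 1.39e-05). Mouse 488 was the highest at 180 ppm and still far below mouse 243, the lowest at 5 ppm. Tymp, thymidine phosphorylase, and Xdh, the xanthine oxidase of purine breakdown, fell without overlap (log2 fold change -3.12 ± 0.44 and -2.03 ± 0.32). Pax8, a paired-box transcription factor, had no count in any 180 ppm library and 14.4, 3.67, 23.9, 18.96 and 9.68 CPM at 5 ppm (adjusted p = 6.37e-05), at least 16.5-fold lower with 3 counts per library as the floor. Aspa, which splits N-acetylaspartate, and Unc93a fell from 26.7 ± 8.78 to 1.24 ± 1.31 CPM and from 17.3 ± 5.62 to 0.466 ± 1.04 CPM.

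**Figure D3:**
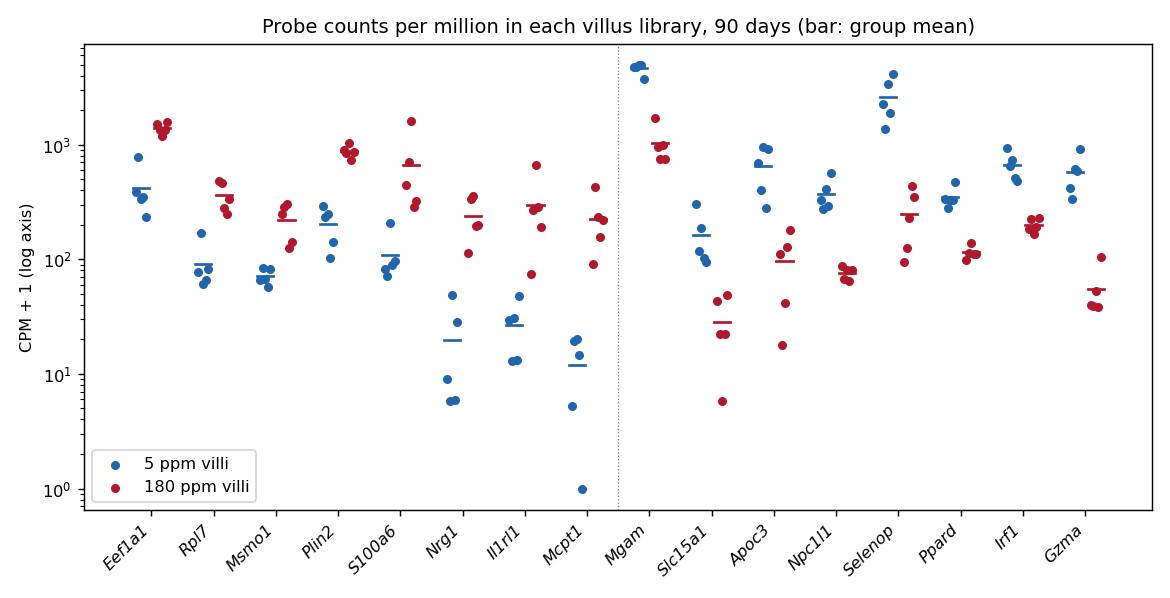
CPM plus 1 of 16 genes in the 10 villus libraries on a log axis, 5 ppm and 180 ppm side by side, with 1 point per mouse and a bar at each group mean. The 8 genes to the left of the dotted line, such as Eef1a1, Plin2 and S100a6, have all 5 of their 180 ppm points above the 5 ppm points, while the 8 to its right, such as Mgam, Npc1l1, Selenop and Gzma, have them all below.

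Lymphocyte genes were in part lower. Of 12 genes of T cells and intraepithelial lymphocytes, Gzma, Gzmb, Ccl5 and Trdc fell and none rose, and all 12 fold changes were negative, with a median of -1.64. Summed over the list the level was 111 to 231 CPM at 180 ppm and 484 to 1225 CPM at 5 ppm, and mouse 490 was the highest at 180 ppm. Gzma, a granule protease of cytotoxic lymphocytes, stood at 39.1, 38.4, 51.8, 37.6 and 103 CPM against 413, 331, 617, 587 and 908 CPM (log2 fold change -3.39 ± 0.42, adjusted p = 1.97e-09). Mouse 490 was again above its fellows and still below every 5 ppm library. Ccl5, a chemokine of the same cells, stood at 6.95, 13.04, 9.33, 0 and 10.4 CPM against 32.6, 35.1, 67.7, 39.9 and 44.2 CPM (log2 fold change -2.38 ± 0.56, adjusted p = 0.00154), and Trdc, the constant chain of the gamma delta T cell receptor, fell from 42.8 ± 15.5 to 6.73 ± 3.72 CPM (log2 fold change -2.59 ± 0.73, adjusted p = 0.0126). The count for lymphocytes was 4 also without both 245 and 246. Of 9 genes of B cells and plasma cells none was called by edgeR or DESeq2 (1 with an unadjusted p under 0.05), and Jchain, which joins immunoglobulin A, was at 1934 ± 755 and 2155 ± 556 CPM.

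Interferon response genes fell in 6 of 22, with a median of -0.76. Irf1, the factor at the head of the interferon gamma response, whose promoter is shown above, stood at 183, 225, 165, 189 and 229.7 CPM against 929, 649, 739.9, 514 and 484 CPM (log2 fold change -1.74 ± 0.24, adjusted p = 5.39e-08). The groups did not overlap, and mouse 241 was the highest of the 10. Igtp, a GTPase that guards against intracellular microbes, stood at 60.1, 45.9, 77.4, 18.8 and 51.3 CPM against 453, 136, 149, 91.4 and 186 CPM (log2 fold change -1.99 ± 0.56, adjusted p = 0.0165). Mouse 241 was far above the others, the groups did not overlap, and without mouse 241 the adjusted p was 0.105. The count for the interferon response was 1 without mouse 241, 2 without mouse 485 and 3 without mouse 484, 488, 490 or 244. The antigen-presenting chains of MHC class II were called in 0 of 9 genes by edgeR and in 1 by DESeq2 (1 with an unadjusted p under 0.05), with Cd74 at 566 ± 95.3 and 822 ± 330.1 CPM.

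Inducible defence proteins of the epithelium fell in 2 of 20 genes, Reg3b and Reg3g, not far from the 6.49% of all genes that were lower. Reg3g, an antibacterial lectin, stood at 57.5, 10.5, 3.46, 17.5 and 3.38 CPM against 725, 280.4, 10.7, 2.43 and 4.21 CPM (log2 fold change -3.42 ± 0.94, adjusted p = 0.0126). Only mice 241 and 243 were high, the other 5 ppm libraries were no higher than the 180 ppm range, and the adjusted p was 0.154 without mouse 241 and 0.112 with the compared libraries alone. The count for inducible epithelial defence was 0 without mouse 241 and 1 without mouse 484, 485 or 490. Reg1, the member of highest level, was not called (log2 fold change -0.13 ± 0.50, adjusted p = 0.943). Outside the list, Trim31, a ubiquitin ligase, and Nlrp6, a sensor of the epithelial inflammasome, fell from 473 ± 140.3 to 163 ± 47.5 CPM and from 409 ± 60.6 to 178 ± 32.3 CPM, both without overlap (adjusted p = 1.23e-06 and 0.000227).

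Genes with large rises included ligands of growth factor receptors, a cytokine receptor and a mast cell protease. Mboat1, an acyltransferase of membrane lipids, stood at 76.7, 157, 292, 30.3 and 26.5 CPM at 180 ppm and 0, 0, 6.37, 6.81 and 0.842 CPM at 5 ppm (log2 fold change 5.20 ± 1.03, adjusted p = 6.4e-05). Mice 484 and 485 were highest, and 2 of the 5 ppm libraries had no count. Nrg1, a ligand of the ErbB3 receptor, stood at 113, 336, 357, 193 and 198 CPM against 8.01, 4.81, 47.8, 4.86 and 27.4 CPM (log2 fold change 3.66 ± 0.66, adjusted p = 2.23e-05). Mouse 244 was the highest at 5 ppm, below all of the 180 ppm group. Ereg, a ligand of the EGF receptor, was at 16.3, 96.4, 68.1, 35.9 and 23.1 CPM against 5.34, 1.41, 6.37, 5.35 and 0.842 CPM (log2 fold change 3.46 ± 1.15, adjusted p = 0.045), without overlap. Its adjusted p was 0.129 without mouse 484, 0.12 without mouse 246 and 0.228 without both 245 and 246.

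Il1rl1, the receptor of the alarm cytokine interleukin 33, stood at 73.3, 270.5, 662, 287 and 189 CPM against 28.3, 11.9, 29.5, 12.2 and 47.1 CPM (log2 fold change 3.50 ± 0.83, adjusted p = 0.00253). Mouse 485 was highest and mouse 483 lowest at 180 ppm, and no library overlapped. Mcpt1, a protease of mucosal mast cells, stood at 89.1, 426, 233, 157 and 218 CPM against 4.27, 18.4, 19.1, 13.6 and 0 CPM (log2 fold change 4.28 ± 0.87, adjusted p = 0.000209). It was the only member called among 9 genes of mast cells and granulocytes, whose sum was 106 to 477 CPM against 8.54 to 49.6 CPM. Mcpt1 itself made up most of that sum at 180 ppm. Of the 9 fold changes 5 were negative and 4 positive, with a median of -1.14. Of 20 immediate early genes Fosl1, Junb and Ier2 rose. Fosl1, a partner in the AP-1 factor, rose from 15.7 ± 14.8 to 157 ± 122 CPM (log2 fold change 3.29 ± 1.01, adjusted p = 0.0337), with an adjusted p of 0.11 without mouse 485 and 0.156 without both 245 and 246. The immediate early count was 1 without both 245 and 246.

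S100a6, the calcium-binding protein calcyclin, stood at 441, 699, 1600.1, 282 and 323 CPM against 80.6, 70.7, 208, 87.5 and 94.7 CPM (log2 fold change 2.62 ± 0.36, adjusted p = 5.39e-08). Mouse 485 was far above the rest at 180 ppm, and mouse 244 was the highest at 5 ppm. Cacybp, which binds it, rose from 95.6 ± 31.3 to 304 ± 60.6 CPM (log2 fold change 1.66 ± 0.24, adjusted p = 8.99e-08). Of 20 genes of cell death, shedding and repair, 5 rose (Krt8, Krt18, Krt19, Ereg and the necroptosis kinase Ripk3), with a median of -0.25. The keratins among them are the filament proteins of simple epithelium. Krt18 stood at 298, 455, 1049.9, 411 and 325 CPM against 117, 122, 248, 142 and 112 CPM (log2 fold change 1.77 ± 0.26, adjusted p = 3.46e-07), with the same mice, 485 and 244, highest in their groups. Its partner Krt8 rose by log2 1.05 ± 0.23 without overlap (adjusted p = 0.105 without both 245 and 246) and Krt19 by log2 2.07 ± 0.35 with overlap. The count of cell death and shedding genes called higher was 3 without mouse 484 or mouse 246 and 2 without both 245 and 246.

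Junction genes moved in both directions, with Cldn2, Cdh1 and F11r higher and Cldn15 and Tjp3 lower of 18. Cldn2, a claudin that forms cation pores and is typical of crypts, stood at 310.3, 558, 369, 107 and 93.3 CPM against 40.6, 96.7, 5.57, 49.1 and 34.1 CPM (log2 fold change 2.65 ± 0.54, adjusted p = 0.000215). Mice 488 and 490 lay near the 5 ppm maximum, and mouse 490 was below it. Cldn15, a claudin of the villus, fell from 450.00 ± 52.9 to 218 ± 40.4 CPM, and Tjp3, a scaffold of tight junctions, from 337 ± 41.1 to 199 ± 22.6 CPM (adjusted p = 0.00129 and 0.0144). Cdh1, E-cadherin, stood at 228, 232, 154, 225 and 245 CPM against 114, 85.1, 84.4, 94.8 and 69.9 CPM (log2 fold change 1.27 ± 0.26, adjusted p = 0.000224), and mouse 485 was the lowest at 180 ppm, above every 5 ppm library.

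Among 8 goblet cell genes, Spink4 and Zg16 rose and Muc13 fell. Spink4, a small protein secreted by goblet cells, stood at 304, 619, 224, 177 and 217 CPM against 102, 126, 66.1, 47.2 and 24.8 CPM (log2 fold change 2.06 ± 0.30, adjusted p = 2.1e-07). The groups did not overlap, and mouse 484 was far above the other 180 ppm mice. The count of goblet cell genes called higher was 1 without mouse 484, 245 or 246 and 1 without both 245 and 246.

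Connective tissue and macrophage genes were in part higher. Of 13 genes of stroma and smooth muscle, Col1a1, Col1a2, Col3a1, Col6a1 and Pdgfra rose, and the sum was 771 to 1213 CPM at 180 ppm against 535 to 784 CPM at 5 ppm. Col3a1, a fibrillar collagen, stood at 63.3, 99.2, 148, 178 and 144 CPM against 53.9, 56.8, 45.4, 61.3 and 40.8 CPM (log2 fold change 1.28 ± 0.30, adjusted p = 0.0023). Mouse 483 was just above the 5 ppm maximum. Col6a1, a chain of the collagen around cells, rose from 16.03 ± 3.30 to 43.02 ± 17.1 CPM (log2 fold change 1.40 ± 0.38, adjusted p = 0.0118), whereas Tagln of smooth muscle was at 174 ± 19.4 and 165 ± 11.9 CPM and was not called. The stroma count was 2 without both 245 and 246.

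Of 11 macrophage genes Lyz2 and Csf1r rose, and the sum of the list was 237 to 492 CPM against 139 to 237 CPM. Lyz2, the macrophage lysozyme, stood at 40.5, 119, 132, 115 and 95.8 CPM against 24.6, 28.6, 29.1, 15.6 and 7.58 CPM (log2 fold change 2.22 ± 0.69, adjusted p = 0.0354), with an adjusted p of 0.113 without mouse 246 and 0.256 without both 245 and 246. Outside the list, Gpnmb, a glycoprotein of lipid-laden macrophages, stood at 48.9, 209, 210.1, 159 and 124 CPM against 10.1, 6.50, 11.9, 23.8 and 3.37 CPM (log2 fold change 3.70 ± 1.23, adjusted p = 0.0571). Both had no overlap and mouse 483 lowest at 180 ppm, and Gpnmb had an adjusted p of 0.109 without mouse 484, 0.131 without mouse 246 and 0.211 without both 245 and 246. Mmp12, the macrophage elastase, stood at 4.07, 30.96, 33.2, 39.9 and 35.5 CPM against 0, 0, 3.18, 0 and 0 CPM (log2 fold change 4.64 ± 2.02, adjusted p = 0.0915). The call was lost with any 1 of 9 libraries left out (adjusted p 0.106 to 0.155), without both 245 and 246 (0.33) and under DESeq2 (0.149). With the probes of the gene summed, the log2 fold change was 2.52 (adjusted p = 0.311). It was also lost with no filter (0.102), total count as a covariate (0.105) and probes detected as a covariate (0.117). The count for macrophage and monocyte genes was 0 without mouse 246 or without both 245 and 246 (2 with an unadjusted p under 0.05) and 1 without mouse 484, 488, 490 or 245.

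Stress pathways gave mixed counts. Heat shock genes rose in 5 of 14, Hsph1, Hsp90aa1, Hsp90ab1, Hspa8 and Dnaja1, with a median of 0.70. Hsph1, a chaperone of the large heat shock class, stood at 273, 233, 285, 159.5 and 238 CPM against 34.96, 142, 26.7, 80.2 and 28.2 CPM (log2 fold change 1.92 ± 0.37, adjusted p = 0.000109). Mouse 243 came closest to the 180 ppm group, without overlap. Hsp90aa1, the stress-induced HSP90, rose from 61.05 ± 39.7 to 182 ± 55.9 CPM (log2 fold change 1.56 ± 0.31, adjusted p = 0.000124). The heat shock count was 3 without mouse 484 and 2 without both 245 and 246.

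In the unfolded protein response, which answers misfolding in the endoplasmic reticulum, 6 of 24 genes rose. Pdia4, a folding enzyme, and Atf4, the factor made when translation is restrained, rose by log2 1.47 ± 0.31 and 1.15 ± 0.22. Atf4 overlapped, with mouse 485 at 139 CPM just below mouse 243 at 139.6 CPM. Hspa5, the main chaperone of that compartment, stood at 2656, 3648, 3722, 1909 and 2047 CPM against 1821, 2016, 2274, 1711 and 1611 CPM (log2 fold change 0.57 ± 0.19, adjusted p = 0.0565). Mice 488 and 490 lay inside the 5 ppm range, and the call was lost without mouse 484, 485 or 246 (adjusted p 0.124 to 0.167), without both 245 and 246 (0.284) and with the compared libraries alone (0.273). The unfolded protein response count was 3 without both 245 and 246.

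Hypoxia inducible genes rose in 6 of 21 (Aldoa, Hk2, Ldha, Ndrg1, Car9 and Hif1a) and Pfkfb3 fell. Aldoa, the aldolase of glycolysis, stood at 153, 151, 159, 122 and 135 CPM against 45.4, 75.8, 50.9, 51.05 and 24.8 CPM (log2 fold change 1.53 ± 0.25, adjusted p = 3.24e-06). Hk2, the hexokinase that opens glycolysis, stood at 65.6, 82.4, 81.9, 72.8 and 76.4 CPM against 34.7, 42.7, 34.2, 13.1 and 29.5 CPM (log2 fold change 1.28 ± 0.34, adjusted p = 0.00771). Neither overlapped between groups, and without both 245 and 246 Hk2 had an adjusted p of 0.188. Hif1a itself was at 292 ± 57.8 CPM against 174 ± 61.9 CPM, with an adjusted p of 0.0939. This was over 0.1 without mouse 485, 488, 490, 243, 245 or 246 (0.108 to 0.19), without both 245 and 246 (0.472) and under DESeq2 (0.102). It was over 0.1 also with DESeq2's size factors (0.108), the compared libraries alone (0.114) and total count as a covariate (0.129). Without both 245 and 246, 1 hypoxia inducible gene was called higher and none lower.

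Targets of NRF2, the regulator of antioxidant genes, did not move one way, with Prdx1, Taldo1, Gsta1 and Gsta4 higher and Gclm, Srxn1 and Ephx1 lower of 28. Prdx1, a peroxidase, stood at 1147, 955, 1242, 1019.5 and 1424 CPM against 748, 604, 607, 427 and 391 CPM (log2 fold change 1.06 ± 0.23, adjusted p = 0.000936). Gclm, the modifier subunit of the enzyme that starts glutathione synthesis, stood at 129, 94.97, 109.6, 118 and 123 CPM against 252, 183, 274, 175 and 412 CPM (log2 fold change -1.17 ± 0.30, adjusted p = 0.00557). The first was higher and the second lower without overlap. The count of NRF2 target genes called higher was 1 without mouse 483, 490, 245 or 246, 1 without both 245 and 246 and 2 without mouse 484. Of 12 metal response genes 0 were called by edgeR and 1 by DESeq2, and 2 had an unadjusted p under 0.05. Mt1 and Mt2, the metallothioneins that bind metal ions, had log2 fold change 0.83 ± 1.16, adjusted p = 0.766 and log2 fold change 1.15 ± 0.81, adjusted p = 0.452, with Mt2 at 100.9, 55.4, 117, 70.2 and 39.5 CPM against 13.9, 35.9, 29.1, 17.99 and 74.9 CPM. The groups overlapped in both, so a difference was not detectable with this spread.

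Of 18 p53 targets, Plk2, a kinase, rose and Fas fell, which is near the share of all genes called (4.45% higher and 6.49% lower). Plk2 was not called without mouse 484, 490 or 245, and edgeR called none of the 18 without both 245 and 246 (3 with an unadjusted p under 0.05). Fas, a death receptor, stood at 16.5, 11.6, 7.26, 36.3 and 19.4 CPM against 57.4, 44.9, 38.6, 38.4 and 46.3 CPM (log2 fold change -1.29 ± 0.42, adjusted p = 0.0459), with an adjusted p of 0.104 to 0.165 without mouse 483, 484, 485 or 490 and 0.138 without both 245 and 246. Of 18 circadian clock genes 1 was called, again near the share of all genes. It was Nr1d1, a repressor of the clock, at 9.34, 8.38, 0, 2.64 and 3.38 CPM against 23.2, 34.2, 20.7, 16.04 and 14.3 CPM (log2 fold change -2.05 ± 0.53, adjusted p = 0.00351). The hour of sampling was not given in the labels used here.

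Several lists had no call. edgeR called 0 of 20 genes of dividing cells (1 with an unadjusted p under 0.05), 0 of 8 of crypt stem cells (3 with such a p, and 2 called by DESeq2) and 0 of 9 of tuft cells (3 with such a p). It also called 0 of 20 genes of replication licensing, 12 of enteroendocrine cells, 13 of the exocrine pancreas and 9 of endothelium, none of which had an unadjusted p under 0.05. DESeq2 called none of these lists but the stem cells. All 9 tuft cell genes had a negative fold change, with a median of -0.54. The tuft cell sum was 85.4 to 115.7 CPM at 180 ppm and 121 to 182 CPM at 5 ppm, without overlap (exact permutation p = 0.00794, adjusted p = 0.0608). Top2a, which untangles DNA in dividing cells, stood at 62.1, 52.1, 23.5, 34.6 and 38.6 CPM against 17.3, 82.3, 15.5, 10.7 and 23.2 CPM (log2 fold change 0.48 ± 0.48, adjusted p = 0.651), with an adjusted p of 0.0881 without mouse 243, the highest of the 10. Olfm4 of stem cells had log2 fold change -1.38 ± 0.61, adjusted p = 0.138, and 0.0335 without mouse 484. Of 11 Paneth cell genes 1 fell, Mmp7, where 6.49% of all genes were lower. Mmp7 stood at 20.4, 52.1, 9.33, 3.63 and 5.64 CPM against 61.9, 172, 24.7, 78.3 and 33.3 CPM (log2 fold change -1.98 ± 0.58, adjusted p = 0.022). Its adjusted p was 0.101 without mouse 490 and 0.126 without mouse 243. Lyz1 was not called (log2 fold change -0.14 ± 0.49, adjusted p = 0.94). Cpa1 of the pancreas was at 20.1, 8285, 14391, 13.2 and 301 CPM against 1.07, 3672, 5014, 888 and 1325 CPM, so that each group held mice with very low and with very high levels.

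The receptors of the nose were the largest list that fell, with 113 of 961 genes. Without both 245 and 246, edgeR called 0 of the olfactory and vomeronasal receptors (149 with an unadjusted p under 0.05), and their median log2 fold change was 0 in place of -1.62. DESeq2 called 8 of these receptors lower with all libraries. The count of these receptors was 1 without mouse 483 or 484, 13 without mouse 485, 4 without mouse 488 or 490, 171 without mouse 241, 41 without mouse 244, 8 without mouse 245 and 7 without mouse 246. The solute carriers of the membrane fell in 37 of 308 genes and rose in 9. The higher count was 3 without both 245 and 246, 4 without mouse 245 and 5 without mouse 483, 244 or 246. The count of solute carriers that fell was 18 without both 245 and 246, 20 without mouse 483, 19 without mouse 484, 22 without mouse 485, 23 without mouse 245 and 24 without mouse 488 or 246.

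Villi at 20 and 60 ppm, from other mice, showed where the changes lay between the 2 doses. Among the 795 higher genes with at least 10 CPM, the median log2 difference from 5 ppm was 0.62 at 20 ppm, 1.05 at 60 ppm and 1.17 at 180 ppm. Among the 524 lower genes it was -0.35, -0.76 and -1.19. In untreated villi it was 0.18 for the higher and -0.50 for the lower genes. The lower genes were thus further below 5 ppm in untreated villi than at 20 ppm, so their order did not follow dose throughout. These differences share the 5 ppm libraries by which the genes were called and are a description. At 20 ppm the mean lay between those at 5 and 180 ppm in 90.8% of the higher and 83.0% of the lower genes, and at 60 ppm in 68.3% and 88.7%. The genes were called by the gap between these 2 ends, so other groups tend to fall between them whatever their dose. These shares are therefore a description too, and a dose order was not tested by them.

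The summed level of the ribosomal proteins had a median of 13654 CPM at 5 ppm, 19886 CPM at 20 ppm, 32547 CPM at 60 ppm and 32000.1 CPM at 180 ppm. For cholesterol synthesis the medians were 714, 1117, 1984 and 1724 CPM. Both lists were thus as high at 60 ppm as at 180 ppm in the median. For sugar digestion and uptake they were 8967, 5184, 3759 and 3312 CPM, and for lymphocytes 820, 323, 138 and 129 CPM. Other lists did not fall steadily. For fat absorption the medians were 118954, 161844, 90608 and 80176 CPM, and for villus enterocyte markers 126257, 167730, 95224 and 83403 CPM. Both were highest at 20 ppm. Untreated villi had medians of 8395 CPM for ribosomal proteins, 625 CPM for cholesterol synthesis, 11978 CPM for sugar digestion and 658 CPM for lymphocytes, in 4 shallower libraries of 1667014 to 2678299 counts. In the same untreated libraries the medians were 70544 CPM for fat absorption and 78915 CPM for villus enterocyte markers, both below those at 180 ppm.

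**Figure D4:**
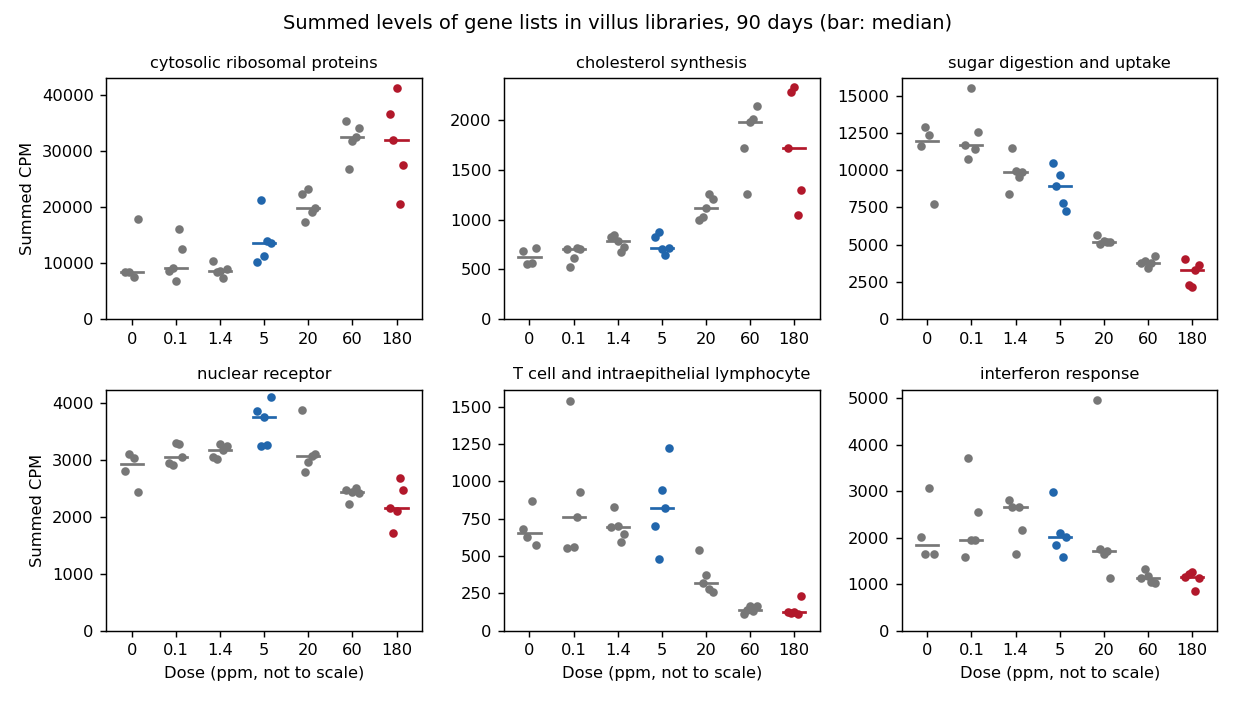
Summed CPM of gene lists in villi at 90 days at each concentration of Cr(VI) in ppm (not to scale), with 1 point per mouse and a bar at the group median, on axes that start at 0. From 5 to 60 ppm the medians of ribosomal proteins and cholesterol synthesis go up and those of sugar digestion, nuclear receptors, lymphocytes and the interferon response go down.

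The test of 60 against 20 ppm compared other libraries, although the spread was estimated over all 28 groups, those at 180 and 5 ppm included. It called 2 genes (0.0105% of 18998). Gzma fell (log2 fold change -1.94 ± 0.39, adjusted p = 0.0281) and Mcpt1 rose (log2 fold change 4.67 ± 0.89, adjusted p = 0.00998), and 2383 probes had an unadjusted p under 0.05. The count was 48 genes without mouse 328 of the 20 ppm group, 0 without mouse 404 of the 60 ppm group, 1 without mouse 321, 402, 403 or 405, 195 under DESeq2 and 180 with the compared libraries alone. Of the higher genes with at least 10 CPM, 90.8% were also higher at 60 than at 20 ppm, and of the lower genes 94.1% were lower, where 50.4% of all genes at that level were higher. Over the called genes of any level these shares were 88.99% and 79.6%, and 41.8% of all genes tested were higher.

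The crypts of the same mice gave 317 genes in the test of 180 against 5 ppm, 128 of them higher and 189 lower. With 1 probe a gene, 0.611% of genes were higher and 0.947% lower. The crypt count was 184 without mouse 484 and 186 without mouse 485. Cholesterol synthesis rose in 9 of 22 genes there, with Msmo1 (log2 fold change 1.68 ± 0.26, adjusted p = 3.73e-06) among them. Sugar digestion fell in 6 of 13 genes, with Mgam (log2 fold change -1.81 ± 0.26, adjusted p = 1.14e-06), and lymphocyte genes fell in 4 of 12, with Gzma (log2 fold change -2.83 ± 0.41, adjusted p = 1.14e-06). edgeR called 0 of 79 ribosomal proteins in the crypt (19 with an unadjusted p under 0.05, and 7 called by DESeq2), where Eef1a1 had log2 fold change 0.51 ± 0.19, adjusted p = 0.3 and Rpl7 had log2 fold change 0.64 ± 0.24, adjusted p = 0.309. Ppia did rise in the crypt (log2 fold change 0.99 ± 0.22, adjusted p = 0.00299). Of the villus genes with at least 10 CPM, 91.9% of the higher were higher and 96.6% of the lower were lower in the crypt, where 51.5% of all were higher. Over the called genes of any level these shares were 90.2% and 81.8%, and 41.1% of all genes tested were higher.

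The difference of the 2 fold changes, villus minus crypt, passed the threshold in 7 genes (0.0368%), all of them positive. Plin2 rose more in the villus than in the crypt (log2 difference 1.67 ± 0.35, adjusted p = 0.0384), as did Eef1a1 (1.23 ± 0.27, adjusted p = 0.0799). Psap, the precursor of proteins that break down lysosomal lipids, had 1.502 ± 0.31, adjusted p = 0.0384 and stood at 283 ± 81.95 against 114 ± 30.7 CPM in the villus. Col6a4, a collagen chain, had 2.28 ± 0.45, adjusted p = 0.0229. Igfbp3, a carrier of insulin-like growth factors, had 1.95 ± 0.42, adjusted p = 0.0384, and there the crypt fold change was negative (log2 fold change -1.72 ± 0.30, adjusted p = 5.72e-05) while the villus was not called (log2 fold change 0.23 ± 0.29, adjusted p = 0.745). This count was 26 without villus mouse 243, 0 without villus mouse 245, 2 without villus mouse 246, 1 without villus mouse 485 or crypt mouse 484, 485 or 244, 4 without villus mouse 484 or 490 or crypt mouse 483 or 243, and 0 without both 245 and 246. With the mouse as a replicate block it was 6 genes. For Rpl7 a difference between villus and crypt was not shown (1.35 ± 0.34, adjusted p = 0.246).

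In villi after 7 days, from other mice (4 at 180 and 4 at 5 ppm), the same doses gave 1467 genes, 801 with a higher and 670 with a lower probe. With 1 probe a gene, 3.70% were higher and 2.78% lower. The 7-day count was 970 without mouse 286 and 948 without mouse 288. Ribosomal proteins rose in 46 of 79 genes at 7 days, cholesterol synthesis in 8 of 22, and sugar digestion fell in 9 of 13 and lymphocyte genes in 6 of 12. Not every list moved so. The interferon response had 2 of 22 genes higher and none lower at 7 days, with a median of 0.24 against -0.76 at 90 days, and nuclear receptors fell in 1 of 18 genes against 6 at 90 days. The test of the difference between the 2 times called only 2 of the 22 and 1 of the 18, against 4.87% of all genes. Without mouse 241, the interferon response had 1 gene called lower at 90 days. S100a6 rose at 7 days (log2 fold change 2.37 ± 0.40, adjusted p = 2.54e-05), Nrg1 likewise (log2 fold change 3.39 ± 0.74, adjusted p = 0.00108), and Selenop fell (log2 fold change -3.35 ± 0.50, adjusted p = 2.1e-06). The proportion of genes moving the same way was 80.3% for the higher and 71.8% for the lower genes of at least 10 CPM, where 54.2% of all were higher at 7 days. Over the called genes of any level it was 78.8% of 845 higher genes and 49.1% of 1233 lower genes, the latter with a median log2 fold change of 0 at 7 days.

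The change in fold change from 7 to 90 days passed the threshold in 1218 genes (4.87% with 1 probe a gene). Without both 245 and 246 it was 12 genes, and with the compared libraries alone it was 4. With 1 library left out it was 638 and 600 without mouse 529 or 530, 464, 1873, 256 and 167 without mouse 484, 485, 488 or 490, 133, 112 and 236 without mouse 286, 288 or 290, and 233 and 130 without mouse 245 or 246. Ppard, Trim31, Nlrp6, Tjp3 and Col6a1 were among those called also without both 245 and 246.

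Ppard fell at 90 days and had log2 fold change 0.18 ± 0.23, adjusted p = 0.78 at 7 days (difference -1.80 ± 0.31, adjusted p = 0.000667). Trim31 and Nlrp6, the ubiquitin ligase and the inflammasome sensor, had log2 fold change 0.27 ± 0.26, adjusted p = 0.637 and log2 fold change 0.84 ± 0.27, adjusted p = 0.0525 at 7 days, of which the second passed the threshold as a rise (differences -1.81 ± 0.35, adjusted p = 0.00495 and -2.04 ± 0.36, adjusted p = 0.000667). Tjp3 had log2 fold change 0.59 ± 0.23, adjusted p = 0.143 at 7 days (difference -1.35 ± 0.31, adjusted p = 0.0293), and Col6a1 fell at 7 days (log2 fold change -1.17 ± 0.43, adjusted p = 0.0968) where it rose at 90 days (difference 2.57 ± 0.58, adjusted p = 0.0207). Irf1 fell at 90 days with log2 fold change -0.71 ± 0.26, adjusted p = 0.111 at 7 days and a difference of -1.03 ± 0.35, adjusted p = 0.0942, but without both 245 and 246 the adjusted p of the difference was 0.154. Plin2 differed likewise (1.34 ± 0.37, adjusted p = 0.0647), with an adjusted p of 0.237 without both.

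**Figure D5:**
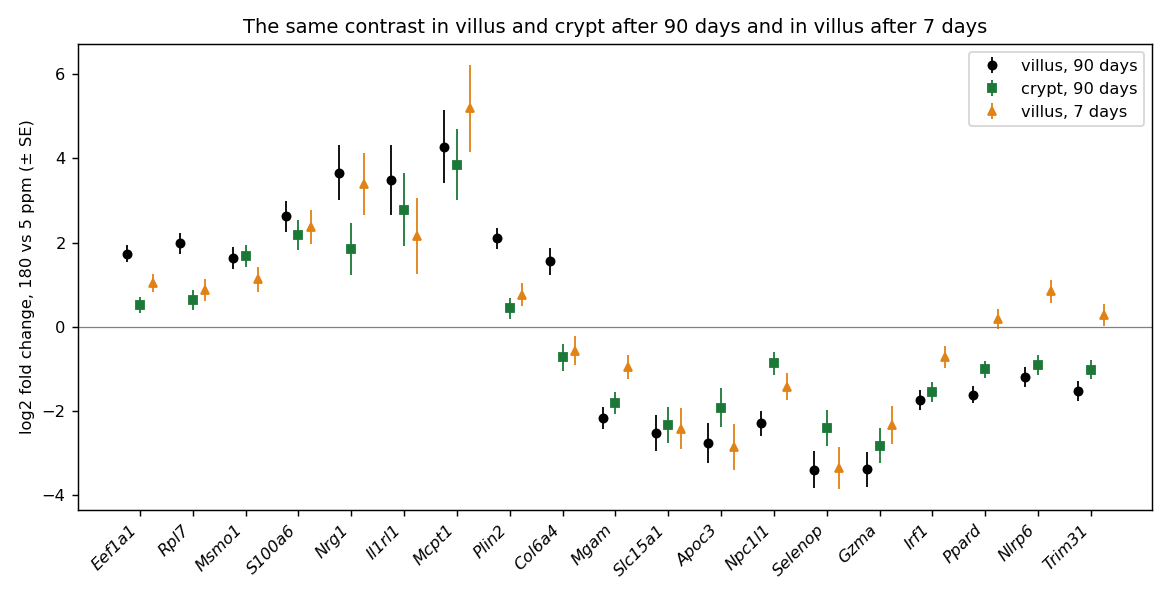
Log2 fold changes with standard errors of 19 genes in villi at 90 days, the crypts of the same mice at 90 days and villi at 7 days, each 180 against 5 ppm. Msmo1, Mgam and Gzma lie on the same side of zero in the 3 comparisons, whereas Plin2 and Eef1a1 are nearer zero in the crypt and Ppard is near zero at 7 days.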

How the data were processed

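RNA from crypt and villus scrapings was measured with the mouse TempO-Seq assay in 137 libraries of 71 mice. The table deposited by the authors holds raw counts of sequencing reads for 30146 probes of 21450 genes, 1 column per library, made after demultiplexing with bcl2fastq 2.17.1.14. Bowtie was also named in the submitters' processing notes, and its settings and genome build were not given in the sources used here. Libraries of low depth or low diversity had been left out by the authors, and totals ran from 1463938 to 7199801 counts. Counts were reads without molecular identifiers, so a floor set in counts covers counting error only. Standard errors came from the quasi-likelihood fit and SDs from the mice of a group, so both include the spread between libraries. Probes with sequences alike in several genes cannot be told apart. The table held 0 columns of other samples.

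Groups followed the labels. Samples with a mouse number of their own were taken as separate animals. Counts were fitted with edgeR 4.0.16 in R 4.3.3 (TMM scaling, filterByExpr, which left 26365 probes, 28 groups in 1 quasi-likelihood fit with legacy=TRUE and a trended dispersion). Each contrast was tested over all probes with Benjamini-Hochberg adjustment at 0.1, the threshold of the study. Log2 fold changes used a prior count of 2, and standard errors were the unshrunk fold change divided by the square root of F. CPM were counts divided by the library total of the probes kept, multiplied by its TMM factor. Where a group had no counts, a fold used a floor of 3 counts per library. On 4335 simulated probes for villus 180 against 5 ppm, 157 of 200 changed 4-fold were recovered, 13 others were called and 0 in a contrast without change. These counts were simulated, so they give no error rate for the measured libraries, some of which stood apart from their group.

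The members and the 47 gene lists were chosen with earlier results of these data known. Genes were named by a rule on 1 probe a gene: the 10 largest rises and falls and the 5 smallest p in each direction among called genes without overlap and with at least 10 CPM, up to 3 called members of each list in each direction with the smallest p and its member of highest level, up to 4 genes of each other contrast in each direction, and Mt1, Mt2, Vil1, Klf4, Lyz1, Mmp7 and Hif1a in any case, of which the text describes a part. Hmgcs1, and other called members of lists, were named after their values were seen. Positions are those of build GRCm38, matched by gene symbol.

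The alternatives were DESeq2 1.42.0, its size factors in edgeR, no filter, a mean count of at least 10, the compared libraries alone, the same compartment and time alone, the other form of the quasi-likelihood fit (legacy=FALSE), total count as a covariate, thinned counts, probes summed per gene, a threshold of 0.05 and each replicate left out. The fits with all libraries carried over the dispersion trend of the reported fit, which was estimated anew where fewer libraries entered, while fits with 1 library left out kept probes and trend. Probes detected as a covariate and the fit without mice 245 and 246 were added after seeing the data. Mice at 180 and 5 ppm shared no number, and the block of mouse applied only to villus against crypt of the same mice, whose deviations from the group means correlated with a median of 0.153 over 10 mice (8974 probes), against -0.0065 for different mice. Single values were tested by an exact permutation test with scipy 1.17.1.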

Additional observations from a re-analysis of the deposited data

Results flagged for a closer look

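In groups of 4 to 10 libraries, a library was marked where its gap to the nearest other, divided by the range of its group, passed Dixon's 95% value (0.71 for 5 libraries). Of 250 groups of gene levels and sums looked at, 27 had such a library, and chance marks about 1 in 20 groups. At 5 ppm, mouse 243 stood apart for Eef1a1 (782 CPM), Rpl7 (169.9 CPM), Xdh (214 CPM), Unc93a (7.63 CPM) and Top2a (82.3 CPM). Mouse 246 stood apart for Mgam (3763 CPM), Ppard (476 CPM) and Col6a1 (21.9 CPM), and mouse 244 for S100a6 (208 CPM), Krt18 (248 CPM) and Mmp12 (3.18 CPM). Mouse 241 stood apart for Igtp (453 CPM).

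At 180 ppm, mouse 485 stood apart for Hmgcs1 (193 CPM), Krt18 (1049.9 CPM), Cdh1 (154 CPM) and the sum of olfactory and vomeronasal receptors (1302 CPM). Mouse 483 did so for Psmc6 (82.9 CPM), Mgam (1709 CPM), Reg3g (57.5 CPM) and Mmp12 (4.07 CPM). Mouse 490 did so for Gzma (103 CPM), the sum of the lymphocyte list (231 CPM) and that of immunoglobulin segments (28260.2 CPM). Mouse 484 stood apart for Unc93a (2.33 CPM) and Spink4 (619 CPM), and mouse 488 for Rps3a1 (112 CPM) and Mt1 (33.95 CPM).

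The log2 fold change of 180 against 5 ppm differed between villus and crypt of the same mice for Col6a4 (2.28 higher in the villus), Igfbp3 (1.95), Plin2 (1.67), Psap (1.502) and Eef1a1 (1.23), each past an adjusted p of 0.1 in edgeR's test of the difference. Without mice 245 and 246 edgeR called 0 of these differences.

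The villus fold change at 90 days exceeded that at 7 days for Col6a1 (by 2.57), Col6a4 (2.12), Slc7a7 (1.89), Ankfy1 (1.88), Igfbp3 (1.56), Plin2 (1.34), Cdh1 (1.21), Psap (1.16), Rpl7 (1.11) and Uqcrh (0.81). It was below that at 7 days for Reg3g (-3.79), Nlrp6 (-2.04), Trim31 (-1.81), Ppard (-1.80), Tjp3 (-1.35), Mgam (-1.21) and Irf1 (-1.03). Each passed an adjusted p of 0.1, and without mice 245 and 246 Ppard, Trim31, Nlrp6, Tjp3 and Col6a1 of these genes still passed. Different mice, sampled at different times, make up the 2 time points, so exposure time and sampling cannot be told apart.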

How the results depend on the processing

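The count for 180 against 5 ppm in villi, 2434 genes, was 1310 with the compared libraries alone, 687 without mice 245 and 246, 1081 at a threshold of 0.05 and 1074 to 2933 with 1 library left out. The share of called probes that were higher was 41.6%, and it was 28.5% with DESeq2's size factors, 55.4% with a mean count of at least 10, 56.3% with no filter, 55% with the compared libraries alone, 65.6% with probes detected as a covariate (1946 genes) and 58.3% at 0.05. For 60 against 20 ppm, 2 genes became 195 with DESeq2, 6 with its size factors, 180 with the compared libraries alone, 4 with villi of 90 days alone, 5 with a mean count of at least 10, 16 with the other form of the fit, 8 with probes summed, 18 with total count as a covariate and 0 to 48 with 1 library left out. For the crypt, 317 became 822 with DESeq2, 1829 with the compared libraries alone, 1989 with crypts of 90 days alone, 540 with the other form of the fit and 184 to 324 with 1 library left out. For villi at 7 days, 1467 became 2501 with DESeq2, 485 with the compared libraries alone, 492 with villi of 7 days alone, 912 at 0.05 and 948 to 1976 with 1 library left out.

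For the difference between villus and crypt, 7 became 36 with DESeq2, 16 with the compared libraries alone, 11 with the other form of the fit, 12 with probes summed, 3 with thinned counts, 4 at 0.05, 0 without mice 245 and 246 and 0 to 26 with 1 library left out. The replicate block of mouse gave 6 genes there and could be applied to no other comparison. Between 90 and 7 days, 1218 became 4 with the compared libraries alone, 541 with a mean count of at least 10, 423 with the other form of the fit, 12 without mice 245 and 246, 63 at 0.05 and 112 to 1873 with 1 library left out. The causes were not tested.

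Over the 102 genes named and their alternatives, 2155 values kept direction and side of the threshold, 84 kept direction and lost the call, 5 gained one and 0 reversed. With 5 libraries a group, a p over the threshold, as for Mt2 or Klf4, does not show that levels were alike.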
